A study of Mus musculus with 18 samples.

Results

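Naive CD4 T cells of mice that over-express miR-27 in T cells (miR-27 Tg) were set against the same cells of wild-type mice (WT). Each genotype had 3 libraries. The comparison covers the 10492 genes, of 23951 in the deposited table, that reached 1 RPKM (reads scaled to the length of the transcript and the size of the library) in at least 3 of these 6 libraries. All mice were C57BL/6, and per the labels the cells were sorted as CD4+CD25- with a further surface marker of naive cells. The sources used here do not name the promoter that drives the transgene or the ages of the mice. They also leave unstated whether each library came from its own animal, so the tests compare libraries whose spread may be partly technical. The series also holds 3 libraries each of miR-24 Tg, miR-23 Tg and cluster Tg, which over-express another member or the whole miR-23 cluster in T cells, and of DKO, which lack both clusters in T cells. These 12 libraries enter the estimate of the spread per gene, and the transgenics serve as comparisons where stated.

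MicroRNAs are short RNAs that guide silencing complexes to messenger RNAs, mostly through pairing of the seed, bases 2 to 8 of the microRNA, with the 3′ UTR. Pairing usually lowers the level of the messenger RNA a little. miR-27 comes as miR-27a and miR-27b, made from clusters that also carry miR-23 and miR-24, and in T cells it is known for effects on helper cell differentiation and on regulatory T cells. The mature sequences are shown with the seed in capitals (RefSeq, GRCm38.p6), because the search for target sites described further on rests on these letters. miR-27a-3p lies at chr8:84208727-84208747 and miR-27b-3p at chr13:63300760-63300780, both on the plus strand.

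mmu-miR-27a-3p: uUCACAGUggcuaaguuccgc
mmu-miR-27b-3p: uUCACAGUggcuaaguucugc
mmu-miR-23a-3p: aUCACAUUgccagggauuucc
mmu-miR-24-3p: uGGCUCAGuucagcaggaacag

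Both forms of miR-27 share 1 seed, and the seeds of miR-23 and miR-24 differ from it.

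Library miR-27 Tg replicate 3 stood apart. The leading principal component held 33.6% of the variance, and on it this library scored 118.1. On this axis 16 other libraries lay between -19.04 and -0.2252 and DKO replicate 3 scored 44.34. Its correlation with miR-27 Tg replicates 1 and 2 across genes was 0.805 and 0.802, against 0.955 between those replicates, and the WT pairs lay between 0.948 and 0.959. Its relative depth was 0.634, against 0.981 and 1.20 in the other miR-27 Tg libraries and 0.911 to 1.13 in WT. Ribosomal protein genes averaged 2017.5 RPKM in it. In 16 other libraries they averaged 350.9 to 781.2 RPKM, and in DKO replicate 3 1359.5 RPKM. Differences from WT are therefore given with all libraries and, for the members described, again without this one. A second component (15.5%) placed the libraries of miR-27 Tg, miR-24 Tg and cluster Tg at -36.61 to -2.56 and those of miR-23 Tg, DKO and WT at 12.97 to 28.7. The sources used here do not say whether these sets were prepared apart, so a preparation set and the genotype cannot be told apart in a comparison with WT. The labelled cell type was in place: the 13 markers of CD4 T cells summed to 5711, 5661 and 8995 RPKM in miR-27 Tg and 5083, 4924 and 5302 RPKM in WT, with none listed at 0.

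The targeted microRNA was high in every miR-27 Tg library. The row of the Mir27a hairpin held 216755, 234933 and 27980 RPKM in miR-27 Tg, against 131, 194 and 95.6 RPKM in WT. The groups did not overlap, and replicate 3 was the lowest of the miR-27 Tg libraries. The difference was 9.70 ± 1.22 on the log2(RPKM + 1) scale (standard error, adjusted p = 0.000309 with limma), and 10.70 ± 1.26 without replicate 3 (adjusted p = 0.000187). In cluster Tg the same row averaged 91741 ± 71575 RPKM (SD, n = 3), and the difference of miR-27 Tg from cluster Tg did not pass the test (adjusted p = 0.758). The rows of the other microRNAs of the cluster did not pass either. Mir23a held 0, 156 and 0 RPKM in miR-27 Tg and 280, 82.8 and 0 RPKM in WT, and Mir24-2 held 35.2, 26.8 and 0 RPKM in miR-27 Tg and 34.5, 46.0 and 18.9 RPKM in WT. Mir27b, Mir23b and Mir24-1 had values too low to be tested. Hairpin rows of all microRNAs took 39.7%, 41.9% and 18.9% of the summed RPKM in miR-27 Tg and 17.3%, 16.8% and 14.7% in WT. RPKM is scaled to length and these rows are short, so this share exceeds their share of reads. A rescaling to the rows other than these hairpins moved the median difference of all genes to -0.116, against 0.02 as deposited. The kit is not described as one for small RNAs, so these rows need not measure the mature microRNA.

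With all libraries, 903 genes passed the test (adjusted p under 0.05 with limma), 8.61% of those tested. Of these, 573 genes (5.46%) were higher and 330 genes (3.15%) lower in miR-27 Tg. Without replicate 3, 1123 genes passed (10.7%), 678 higher (6.46%) and 445 lower (4.24%). In both fits 716 genes passed, all in the same direction, which is 79.3% of the 903 and 63.8% of the 1123. Of these, 709 genes (6.76%) also had miR-27 Tg values that did not overlap the WT values, 465 of them higher (4.43%) and 244 lower (2.33%). Non-overlap alone was met by 1550 genes above WT (14.8%) and 1313 below (12.5%). Without replicate 3, 232 of the 678 higher genes and 43 of the 445 lower genes differed by at least 1 on the log2 scale. Of the genes tested, 131 reached 1 RPKM in miR-27 Tg alone and 39 in WT alone, so that they were bound to differ. Among the other 10322, 468 were higher (4.53%) and 310 lower (3.0%) with all libraries, and 584 (5.66%) and 430 (4.17%) without replicate 3. The count of 903 moved with single libraries, to 519, 577 and 528 genes without WT replicate 1, 2 or 3, and to 1043 and 1078 without miR-27 Tg replicate 1 or 2.

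**Figure D1:**
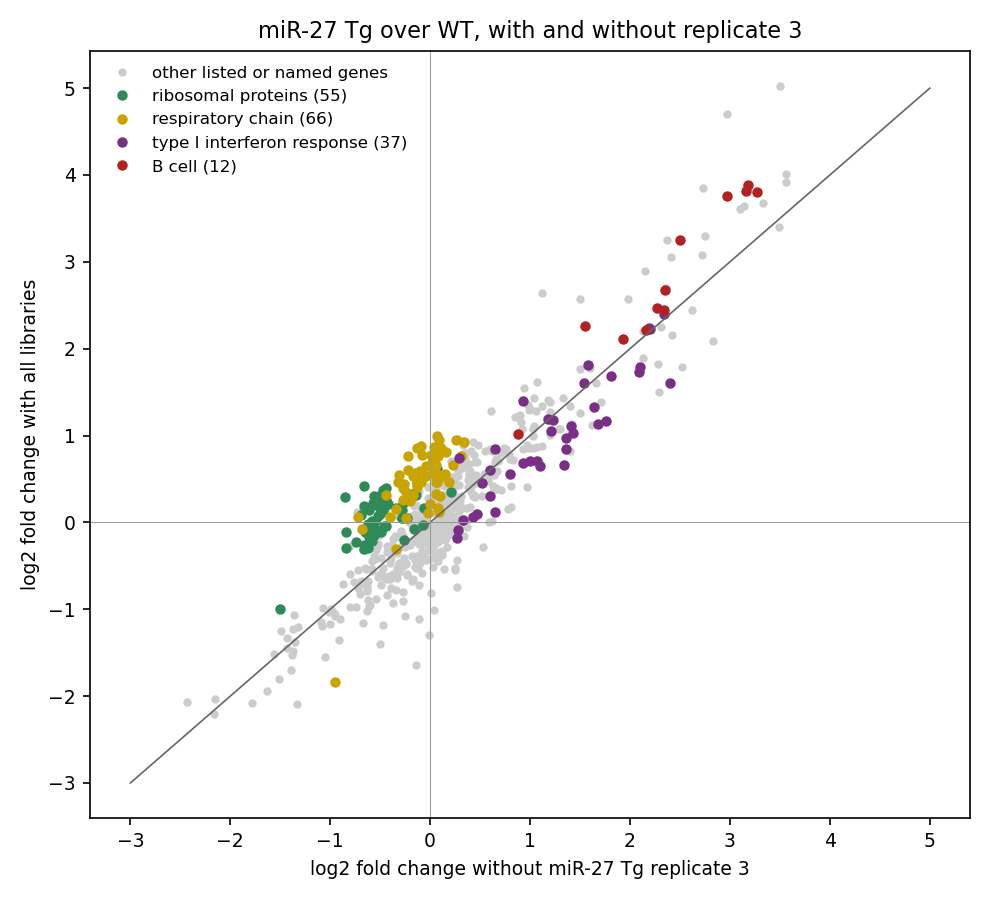
Each point is a tested gene of the gene lists or among the named genes, without rows of small RNAs, with its log2 difference of miR-27 Tg from WT without miR-27 Tg replicate 3 on the horizontal axis and with all libraries on the vertical axis, and 4 lists are coloured. The 55 ribosomal protein genes and the 66 respiratory chain genes lie off the diagonal (medians 0.08 and 0.54 with all libraries, -0.51 and -0.01 without replicate 3), whereas the 37 interferon genes and 12 B cell markers lie above 0 in most cases on both axes.

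The plot of the differences with and without replicate 3 shows which gene groups that library moves. Respiratory chain genes averaged 439.1 RPKM in miR-27 Tg replicate 3, 98.6 to 123.9 RPKM in 16 other libraries of the series and 203.3 RPKM in DKO replicate 3. None of the 66 passed the test in either fit with limma, and at an unadjusted p under 0.05 there were 4 higher and 1 lower genes with all libraries and 0 higher and 3 lower without replicate 3. Of the 55 ribosomal protein genes none passed with all libraries, at an unadjusted p under 0.05 likewise none. Without replicate 3, 3 fell (5.45%, against 4.24% of all genes), and 8 fell after quantile normalisation. At an unadjusted p under 0.05 in the limma fit without replicate 3, 20 were lower and 0 higher. Of all 10492 genes tested, 1131 were lower at that level.

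The 15 largest rises without replicate 3 were those of the hairpin rows Mir27a, Mir29a, Mir425 and Mirlet7a-1, of the B cell and neutrophil markers H2-Aa, H2-Ab1, Cd74, S100a8 and S100a9, and of Igj, Tmem176b, Tmem176a, Ifitm3, Plac8 and Ccl5. Of these, S100a8, S100a9, Igj, Mir29a, Mir425 and Mirlet7a-1 reached 1 RPKM in miR-27 Tg alone, so that they were bound to differ. Tmem176b, which encodes a multi-pass membrane protein, held 50.02, 58.1 and 139 RPKM in miR-27 Tg and 3.60, 5.34 and 2.47 RPKM in WT. The lowest miR-27 Tg library was far above the highest WT library. The difference was 4.01 ± 0.36 (adjusted p = 1.57e-05) and 3.56 ± 0.30 without replicate 3 (adjusted p = 1.53e-05). Its neighbour and paralog Tmem176a held 30.1, 31.6 and 64.3 RPKM in miR-27 Tg and 1.74, 2.46 and 2.32 RPKM in WT, and rose by 3.68 ± 0.32 (adjusted p = 1.51e-05, and 3.33 with an adjusted p of 2.36e-05 without replicate 3). Ifitm3, which restricts the entry of viruses into cells, held 28.6, 23.05 and 20.8 RPKM in miR-27 Tg and 0.694, 1.23 and 2.50 RPKM in WT. Here replicate 3 was the lowest of the miR-27 Tg libraries, and the rise was 3.40 ± 0.36 (adjusted p = 6.31e-05, and 3.49 with an adjusted p of 0.000164 without replicate 3). Ccl5, a chemokine stored by memory T cells, held 34.3, 13.3 and 64.1 RPKM in miR-27 Tg and 3.23, 2.27 and 0.295 RPKM in WT (3.61 ± 0.58, adjusted p = 0.00163, and 3.10 with an adjusted p of 0.00461 without replicate 3). Plac8 held 14.0, 19.4 and 48.0 RPKM in miR-27 Tg and 0.537, 1.43 and 1.08 RPKM in WT (3.64 ± 0.61, adjusted p = 0.00217, and 3.14 with an adjusted p of 0.00667 without replicate 3). All of these groups were free of overlap, as the choice of these genes requires.

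Hairpin rows of Mir29a, Mir425 and Mirlet7a-1 reached 1 RPKM in miR-27 Tg alone, so that they had to differ, and their values are given with no test. Mir29a held 505, 621 and 326 RPKM in miR-27 Tg, Mir425 held 49.7, 163 and 231 RPKM, and Mirlet7a-1 held 93.0, 76.3 and 48.0 RPKM, and all 3 rows were listed at 0 in every WT library. Mirlet7a-1 averaged 82.6 RPKM in cluster Tg and 68.0 RPKM in miR-24 Tg and was listed at 0 in miR-23 Tg and DKO. This is the same division of genotypes as on the second principal component.

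**Figure D2:**
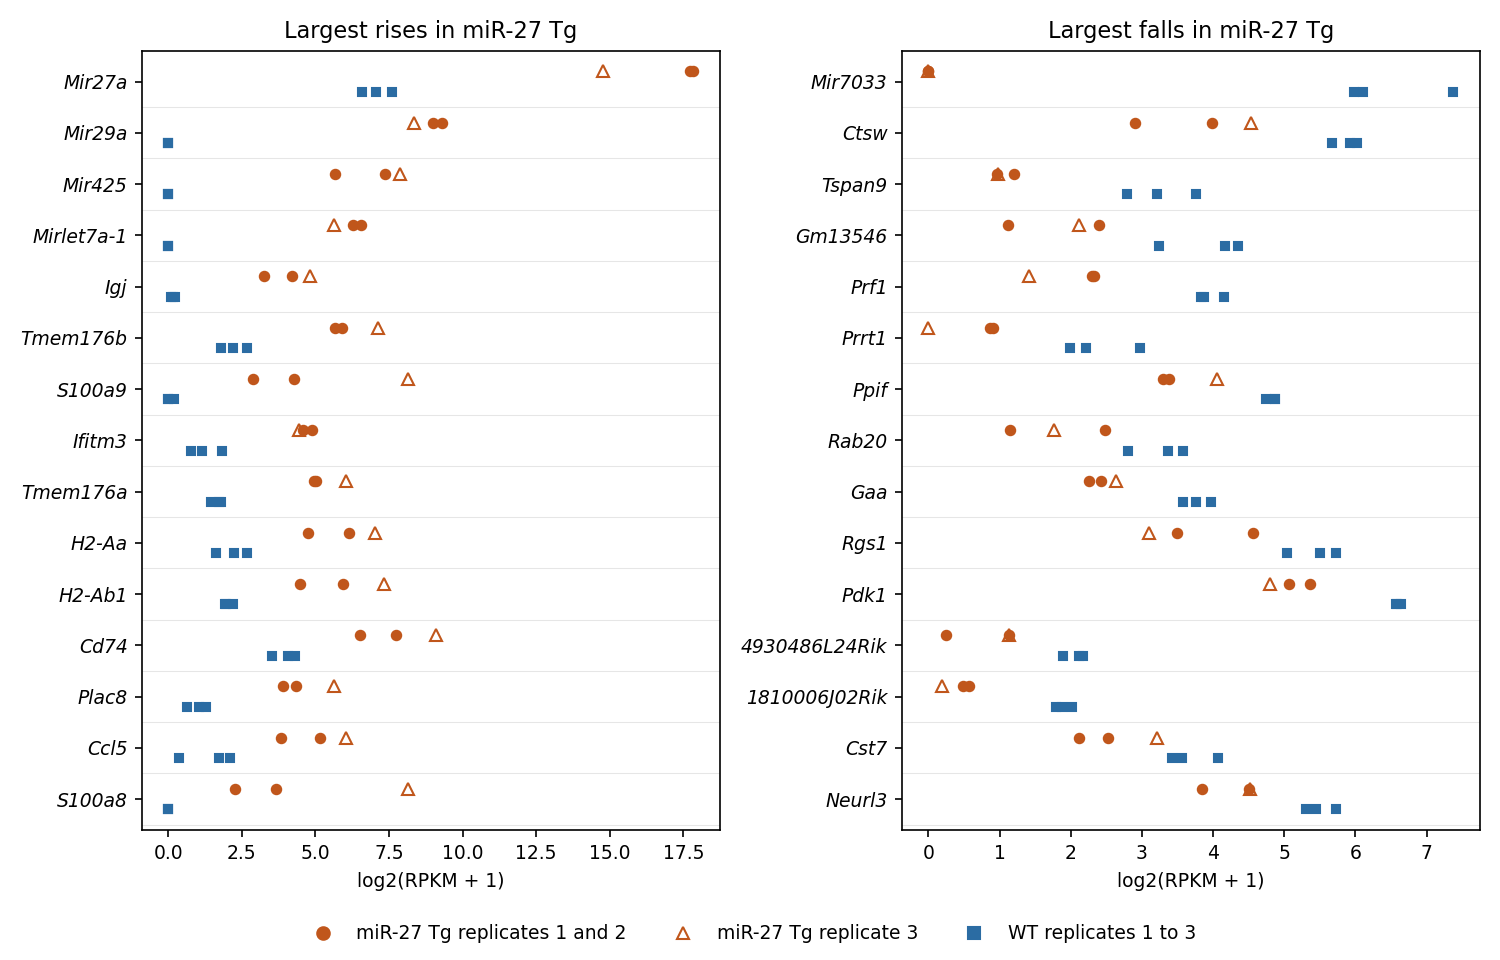
Values of the 15 genes with the largest rise and the 15 with the largest fall in miR-27 Tg without replicate 3, on the log2(RPKM + 1) scale, with 1 symbol per library (filled circles for miR-27 Tg replicates 1 and 2, open triangles for replicate 3, squares for WT). The 3 miR-27 Tg symbols lie on 1 side of the 3 WT symbols in every gene shown, as the choice of these genes requires, and replicate 3 is far above the other miR-27 Tg libraries for S100a8 and S100a9.

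Genes of cytotoxic lymphocytes moved in both directions. Prf1, Ctsw and Cst7 were among the 15 largest falls, and Fasl and Crtam fell as well, whereas Nkg7 rose (described with the effector genes). In bulk RNA, fewer cells of a type and less RNA per cell cannot be told apart. The 7 markers of CD8 T cells summed to 129.3, 92.6 and 201.4 RPKM in miR-27 Tg and 112.5, 107.2 and 117.7 RPKM in WT, so the groups overlapped. This sum includes Ctsw, Crtam and Nkg7 themselves, and its overlap rests on the fall of Ctsw. Apart from Ctsw, the sum of the other markers was higher in every miR-27 Tg library than in any WT library. Prf1 encodes perforin, the pore-forming protein of cytotoxic granules, and held 3.93, 4.04 and 1.65 RPKM in miR-27 Tg and 13.7, 13.2 and 16.7 RPKM in WT. Every miR-27 Tg library lay well below the lowest WT library, and Prf1 fell by 1.94 ± 0.24 (adjusted p = 0.000223) and by 1.63 ± 0.19 without replicate 3 (adjusted p = 0.00019). Ctsw encodes cathepsin W, a protease of cytotoxic cells, and held 14.8, 6.45 and 22.2 RPKM in miR-27 Tg and 59.6, 49.999 and 64.2 RPKM in WT (-2.07 ± 0.33, adjusted p = 0.00153, and -2.44 with an adjusted p of 0.000246 without replicate 3). Cst7, which encodes cystatin F, an inhibitor of granule proteases, held 4.76, 3.34 and 8.26 RPKM in miR-27 Tg and 9.69, 15.8 and 10.9 RPKM in WT. Its difference was -1.07 ± 0.27 (adjusted p = 0.0221, and -1.36 with an adjusted p of 0.00305 without replicate 3), and the call was lost without miR-27 Tg replicate 1 or 2 or without WT replicate 2 or 3 (adjusted p up to 0.105). Fasl, the ligand of the death receptor Fas, held 3.48, 2.41 and 2.02 RPKM in miR-27 Tg and 6.11, 7.17 and 6.36 RPKM in WT (-1.07 ± 0.16, adjusted p = 0.000865, and -0.95 with an adjusted p of 0.0021 without replicate 3). Crtam, a surface receptor of cytotoxic and activated T cells, held 1.58, 1.19 and 1.80 RPKM in miR-27 Tg and 4.01, 3.11 and 5.01 RPKM in WT (-0.99 ± 0.18, adjusted p = 0.00393, and -1.07 with an adjusted p of 0.00414 without replicate 3).

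Other large falls were in genes of metabolism, signalling and organelles. Pdk1, a kinase that holds pyruvate back from the mitochondrion, held 40.1, 32.5 and 26.8 RPKM in miR-27 Tg and 99.2, 94.6 and 94.5 RPKM in WT. The difference was -1.53 ± 0.13 (adjusted p = 1.51e-05) and -1.39 ± 0.12 without replicate 3. Gaa, the lysosomal enzyme that degrades glycogen, held 4.39, 3.77 and 5.22 RPKM in miR-27 Tg and 14.7, 12.6 and 10.98 RPKM in WT (-1.33 ± 0.12, adjusted p = 1.92e-05, and -1.43 with an adjusted p of 1.53e-05 without replicate 3). Ppif, which encodes cyclophilin D of the mitochondrial permeability pore, held 8.82, 9.44 and 15.6 RPKM in miR-27 Tg and 28.3, 28.3 and 25.9 RPKM in WT. Replicate 3 was the highest miR-27 Tg library for Ppif, and the difference was -1.25 ± 0.18 with all libraries (adjusted p = 0.000621) and -1.49 ± 0.13 without it (adjusted p = 2.28e-05). Tspan9, a tetraspanin, held 0.952, 1.30 and 0.970 RPKM in miR-27 Tg and 5.90, 8.29 and 12.5 RPKM in WT (-2.20 ± 0.22, adjusted p = 4.54e-05, and -2.17 with an adjusted p of 0.000173 without replicate 3). Rgs1, which damps signals of chemokine receptors, held 22.7, 10.3 and 7.59 RPKM in miR-27 Tg and 44.4, 51.8 and 31.9 RPKM in WT. Its difference was -1.70 ± 0.38 (adjusted p = 0.0127, and -1.39 with an adjusted p of 0.0366 without replicate 3) and did not pass without WT replicate 2 (adjusted p = 0.0557). The remaining genes among the 15 with the largest falls were Neurl3, Prrt1, Rab20, Gm13546, 4930486L24Rik, 1810006J02Rik and the hairpin row Mir7033. Of these, Prrt1, 1810006J02Rik and Mir7033 reached 1 RPKM in WT alone.

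Type I interferon acts through a receptor on nearly all cells and factors that include STAT2 and IRF9, and induces a set of antiviral genes. Of the 37 interferon genes tested, 22 rose in miR-27 Tg with all libraries and 31 without replicate 3, and none fell in either fit with limma, also none at an unadjusted p under 0.05. The median difference of the 37 was 0.98 with all libraries and 1.21 without replicate 3, against 0.02 and 0.00 over all genes tested, of which 5.46% and 6.46% were called higher. The count was 12 to 16 genes when any other of the 6 libraries was left out, with the fewest without WT replicate 2. It was also 12 genes when the table was rescaled to the rows other than microRNA hairpins. None of the 37 genes reached 1 RPKM in miR-27 Tg alone. Summed B cell markers, given further on, were also above WT in every miR-27 Tg library, and their part in the interferon rise was not tested.

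Ifit1, which binds foreign RNA, held 75.1, 60.8 and 71.5 RPKM in miR-27 Tg and 14.6, 11.2 and 16.3 RPKM in WT. The libraries of each genotype lay close together, and Ifit1 rose by 2.23 ± 0.24 (adjusted p = 8.05e-05, and 2.202 with an adjusted p of 0.000246 without replicate 3). Ifit3, of the same family, held 60.7, 38.9 and 55.2 RPKM in miR-27 Tg and 9.82, 6.35 and 10.9 RPKM in WT (2.40 ± 0.31, adjusted p = 0.000386, and 2.34 with an adjusted p of 0.001 without replicate 3). Oas1a, of the family of enzymes that make the messenger 2-5A on double-stranded RNA, held 29.9, 14.9 and 23.6 RPKM in miR-27 Tg and 3.66, 3.98 and 3.99 RPKM in WT (2.24 ± 0.25, adjusted p = 0.000122, and 2.19 with an adjusted p of 0.00035 without replicate 3). Another gene of this family, Oas2, held 120, 116 and 61.3 RPKM in miR-27 Tg and 27.1, 24.6 and 28.4 RPKM in WT, and rose by 1.79 ± 0.23 with all libraries and 2.10 ± 0.18 without replicate 3 (adjusted p = 0.000356 and 1.53e-05). All miR-27 Tg libraries were above all WT libraries for these 4 genes, as the choice of named list members requires.

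Isg15, a ubiquitin-like protein that is attached to other proteins, held 115, 101 and 173 RPKM in miR-27 Tg and 36.4, 32.0 and 38.0 RPKM in WT (1.81 ± 0.34, adjusted p = 0.00417, and 1.58 with an adjusted p of 0.0126 without replicate 3). Usp18, the protease that removes it, held 93.7, 63.0 and 41.0 RPKM in miR-27 Tg and 30.9, 26.5 and 27.7 RPKM in WT (1.11 ± 0.25, adjusted p = 0.0134, and 1.41 with an adjusted p of 0.00131 without replicate 3, and 0.0504 without WT replicate 2). Among the transcription factors, Irf7 held 193, 151 and 154 RPKM in miR-27 Tg and 84.1, 62.5 and 71.9 RPKM in WT (1.18 ± 0.20, adjusted p = 0.0023, and 1.23 with an adjusted p of 0.00312 without replicate 3). Irf7 and Isg15 were above all WT libraries in every miR-27 Tg library, which their choice as named members requires. Usp18 was closest to WT in replicate 3. Stat2 held 81.9, 72.7 and 33.5 RPKM in miR-27 Tg and 31.7, 27.7 and 25.2 RPKM in WT. Its rise of 1.03 ± 0.25 (adjusted p = 0.0192) did not pass without miR-27 Tg replicate 1 or 2 or WT replicate 2 or 3 (adjusted p up to 0.0766), and was 1.43 ± 0.15 without replicate 3 (adjusted p = 9.82e-05). Il10ra, a receptor chain for interleukin-10, rose as well, with 32.3, 28.6 and 37.7 RPKM in miR-27 Tg and 10.05, 13.6 and 10.99 RPKM in WT (1.43 ± 0.16, adjusted p = 0.000122, and 1.33 with an adjusted p of 0.000291 without replicate 3).

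Several interferon genes did not pass with all libraries and passed without replicate 3, and in these genes that library was near or below the WT level. Mx1, an interferon-induced GTPase, held 28.7, 14.0 and 3.01 RPKM in miR-27 Tg and 3.63, 2.42 and 3.04 RPKM in WT. Its difference was 1.60 ± 0.52 with all libraries (adjusted p = 0.0721) and 2.40 without replicate 3 (adjusted p = 0.000593). Eif2ak2, the kinase PKR, held 25.2, 23.4 and 5.14 RPKM in miR-27 Tg and 9.81, 8.24 and 8.92 RPKM in WT (adjusted p = 0.305, and 0.000633 without replicate 3). Ifit2, Rsad2, Cmpk2 and Parp14 had the same layout, with replicates 1 and 2 above all WT libraries and replicate 3 within or below the WT values.

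**Figure D3:**
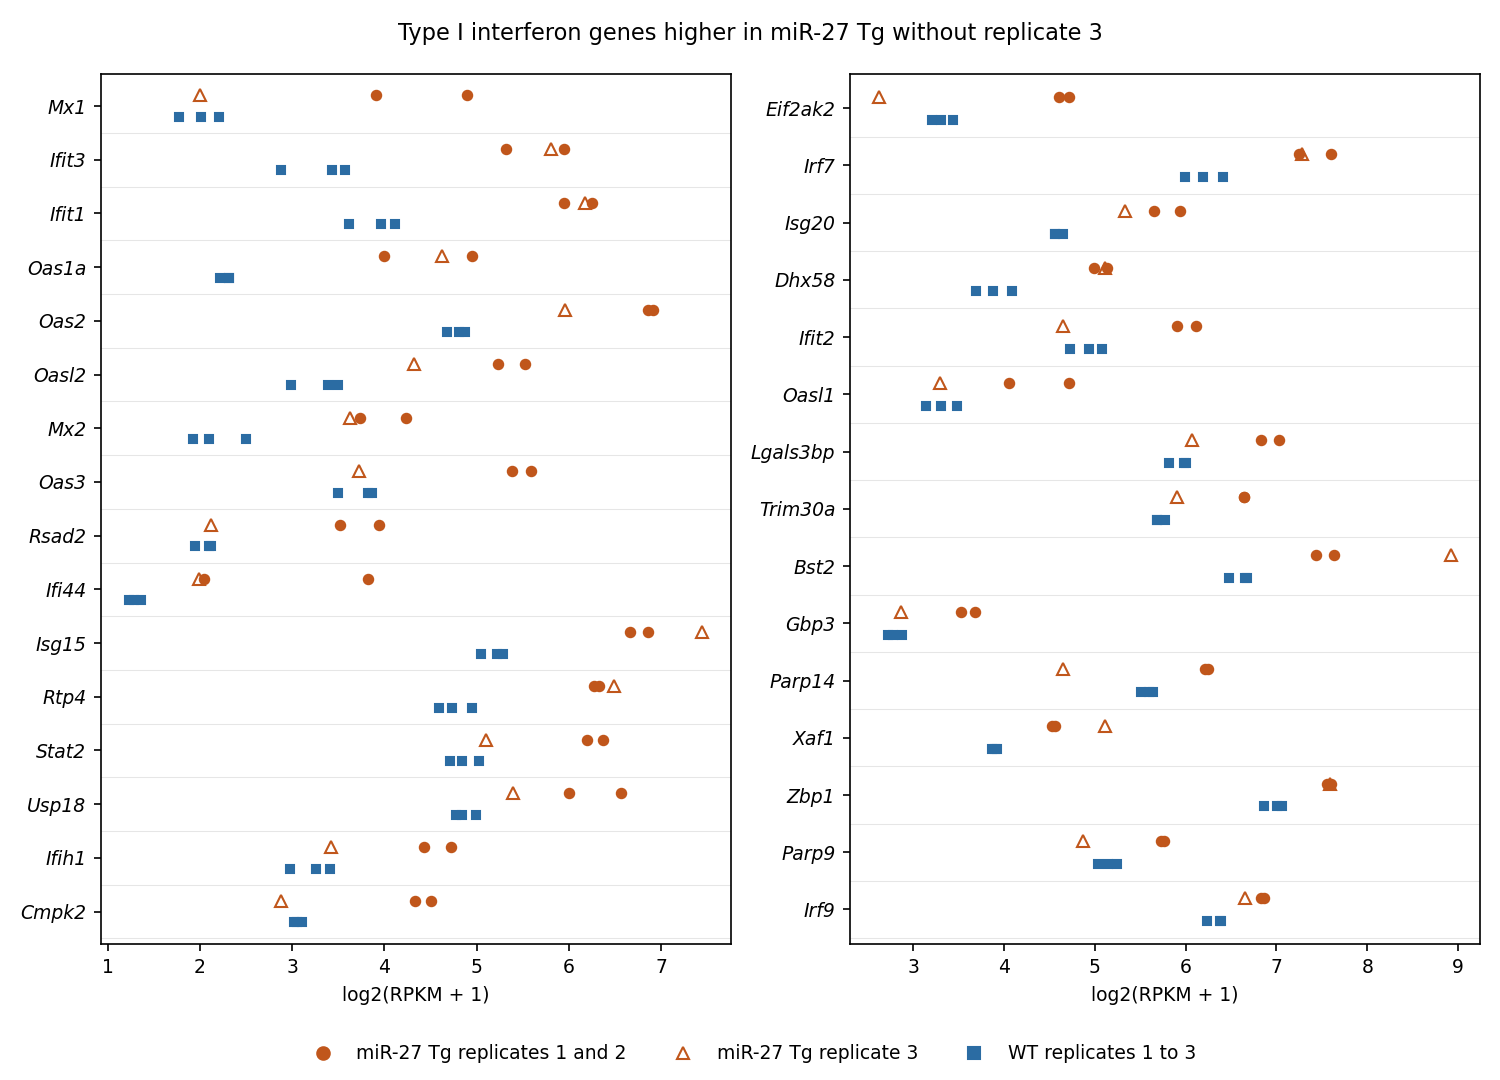
Values of the 31 interferon genes that passed the test without miR-27 Tg replicate 3, in the 6 libraries on the log2(RPKM + 1) scale, with 1 symbol per library (filled circles for miR-27 Tg replicates 1 and 2, open triangles for replicate 3, squares for WT). The circles lie right of the squares, and the triangle is at the WT level or left of it in rows such as Mx1 and Eif2ak2.

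The promoters of interferon genes often carry the interferon-stimulated response element, which STAT2 with IRF9 and other IRF factors bind. The motif GAAANNGAAA, where N is any base, was sought on both strands from 250 bases before to 50 after the start of each gene in RefSeq (GRCm38.p6). It was present in 15 of the 27 interferon genes with a promoter in the table (55.6%), in 321 of 8317 tested genes (3.86%) and in 1079 of all 27025 promoters (3.99%). Of genes called higher, 31 of 440 (7.05%) held it with all libraries and 41 of 523 (7.84%) without replicate 3, and of genes called lower 7 of 259 (2.70%) and 11 of 358 (3.07%). The genes called higher include genes of the interferon list, so these shares count the same genes in part. Shares without that list are not given. A match is a stretch of letters and no proof of a bound site. Windows of Ifit1, Ifit3, Isg15, Oas1a and Stat2, which hold the motif, are shown on the strand that holds it, with the motif in capitals. They lie at chr19:34640798-34640819 for Ifit1, chr19:34583367-34583388 for Ifit3, chr4:156200875-156200896 for Isg15, chr5:120907524-120907545 for Oas1a and chr10:128270270-128270291 for Stat2, all on the minus strand.

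Ifit1: cagtgaGAAACTGAAActgaga
Ifit3: gaagagGAAAGTGAAActtacc
Isg15: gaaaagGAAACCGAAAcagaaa
Oas1a: gaaatgGAAACTGAAAatctac
Stat2: ggaaagGAAACTGAAAccaggg

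The interferon rise was tested against the other transgenics, which share the miR-27 Tg libraries between them. Without replicate 3, 32 of the 37 genes were higher in miR-27 Tg than in miR-24 Tg (17 with all libraries), where 8.67% of all genes tested were higher (6.98% with all libraries). The median difference was 1.05. Against miR-23 Tg, 32 were higher (24 with all libraries, and 9.61% and 9.31% of all genes), with a median of 1.32. Against cluster Tg, which also carries a high Mir27a row, 3 were higher (1 with all libraries, and 2.36% and 1.87% of all genes), with a median of 0.35. Comparisons of the other transgenics with WT, whose libraries they share, are given with all libraries. There 19 of the 37 were higher with cluster over-expression (4.98% of all genes were) and 1 was in miR-24 Tg (1.97% of all genes were). Ifit1 had 75.1, 60.8 and 71.5 RPKM in miR-27 Tg as above, and averaged 44.7 RPKM in cluster Tg, 19.7 RPKM in miR-24 Tg and 10.9 RPKM in miR-23 Tg. The Mir27a row was lowest in replicate 3, where Mx1 and Eif2ak2 were near WT but Ifit1 was not.

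Genes of effector and memory T cells are low in naive cells and rise after antigen contact. Of 31 tested, 5 (Gzmk, Tbx21, Anxa1, Lgals3 and Ccr2) reached 1 RPKM in miR-27 Tg alone and are left out of the counts. Of the other 26, 11 rose (42.3%) and 2 fell (7.69%) both with all libraries and without replicate 3, with medians of 0.90 and 0.84. Among all genes 5.46% and 6.46% were called higher and 3.15% and 4.24% lower. The number that rose was 7 to 8 when a WT library was left out and 8 under the rescaling without hairpin rows. The B cell markers were above WT in the same libraries, and their part was not tested. Those that fell were Prf1 and Fasl, described above. Cxcr3, a chemokine receptor of Th1 and memory cells, held 17.8, 7.89 and 6.53 RPKM in miR-27 Tg and 0.910, 1.59 and 1.86 RPKM in WT (2.16 ± 0.40, adjusted p = 0.00399, and 2.42 with an adjusted p of 0.00303 without replicate 3). Tbx21, which encodes the Th1 factor T-bet, held 3.88, 1.49 and 2.07 RPKM in miR-27 Tg and 0.3002, 0.350 and 0.309 RPKM in WT. For both genes replicate 1 was the highest library. Gzmk, which encodes granzyme K, held 6.18, 3.13 and 5.43 RPKM in miR-27 Tg and 0.2996, 0.1997 and 0.246 RPKM in WT. Tbx21 and Gzmk are given with no test, since they entered through the libraries in which they were high.

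S100a6, a calcium-binding protein of memory cells, held 73.2, 32.8 and 157 RPKM in miR-27 Tg and 5.39, 9.50 and 5.16 RPKM in WT (3.30 ± 0.52, adjusted p = 0.00139, and 2.75 with an adjusted p of 0.00308 without replicate 3). Nkg7, a membrane protein of cytotoxic granules, held 23.5, 12.0 and 67.7 RPKM in miR-27 Tg and 2.17, 2.51 and 2.38 RPKM in WT (3.06 ± 0.50, adjusted p = 0.00184, and 2.41 with an adjusted p of 0.00252 without replicate 3). Replicate 3 was the highest library for S100a6 and Nkg7, and both also passed without it. Nrp1, a receptor of semaphorins that regulatory T cells of thymic origin carry, held 27.2, 12.3 and 12.4 RPKM in miR-27 Tg and 2.197, 2.33 and 1.93 RPKM in WT (2.44 ± 0.28, adjusted p = 0.000141, and 2.62 with an adjusted p of 0.000174 without replicate 3). Pdcd1, the inhibitory receptor PD-1, held 13.7, 9.30 and 10.1 RPKM in miR-27 Tg and 2.86, 2.99 and 2.86 RPKM in WT (1.61 ± 0.27, adjusted p = 0.00246, and 1.66 with an adjusted p of 0.00419 without replicate 3). Itgb1, Vim, Maf and Icos rose too, but each of these calls was lost whichever of the 3 WT libraries was left out (adjusted p up to 0.0924). Ifng did not reach the level needed for the test.

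The same 26 genes were set against the other transgenics. Without replicate 3, 2 were higher and 4 lower in miR-27 Tg than in miR-24 Tg (2 and 3 with all libraries), where 8.67% of all genes were higher and 7.21% lower (6.98% and 5.98% with all libraries). None was higher and 3 were lower than in cluster Tg in both fits (2.36% of all genes were higher and 1.95% lower, and 1.87% and 1.78% with all libraries). Against miR-23 Tg 13 were higher and 2 lower (14 and 2 with all libraries), where 9.61% of all genes were higher and 7.52% lower (9.31% and 7.45% with all libraries). Comparisons with WT, whose libraries are shared, are given with all libraries. There 14 of the 26 rose with cluster over-expression (4.98% of all genes did), 9 rose in miR-24 Tg (1.97%) and none rose in miR-23 Tg. Cxcr3 averaged 22.9 RPKM in cluster Tg, 16.4 RPKM in miR-24 Tg and 1.67 RPKM in miR-23 Tg. The falls in cytotoxic genes were tested in the same way. Prf1 averaged 10.6 RPKM in cluster Tg, 26.6 ± 5.63 RPKM in miR-24 Tg and 14.2 RPKM in miR-23 Tg, and was lower in miR-27 Tg than in each of them (adjusted p = 0.00375, 1.61e-05 and 0.000211). Cst7 averaged 22.2 RPKM in cluster Tg and 37.9 RPKM in miR-24 Tg, and was lower in miR-27 Tg than in both (adjusted p = 0.00227 and 3.6e-05). Crtam was lower in miR-27 Tg than in all 3 of them (adjusted p = 0.0076 against cluster Tg, 0.00627 against miR-24 Tg and 0.000473 against miR-23 Tg). Ctsw was lower than in miR-24 Tg (adjusted p = 0.000492), and its difference from cluster Tg did not pass with all libraries and passed without replicate 3 (adjusted p = 0.125 and 0.0293). The differences of Prf1, Cst7 and Crtam named here also passed without replicate 3. The averages of Cst7 in cluster Tg and miR-24 Tg, and of Prf1 in miR-24 Tg, lay above every WT library. Those differences therefore hold more than the fall from WT. Comparisons of Fasl, and of Cst7 and Ctsw with miR-23 Tg, are not given here.

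Of the 28 genes of the naive state, Slfn2 rose and Pdk1 fell in both fits (3.57% each, against 5.46% and 3.15% of all genes with all libraries), with a median of -0.09 and, without replicate 3, -0.06. Slfn2, which keeps T cells quiescent, held 508, 511 and 1045 RPKM in miR-27 Tg and 256, 247 and 322 RPKM in WT (1.24 ± 0.30, adjusted p = 0.0197, and 0.90 with an adjusted p of 0.0471 without replicate 3), and did not pass without WT replicate 1 or 2 (adjusted p up to 0.0747). Tcf7, Lef1, Il7r and Ccr7 did not pass in either fit. Of 32 genes of the T cell receptor and immediate early response, Myc alone passed with all libraries. That is 3.12% lower and 0.0% higher, near or below the 3.15% and 5.46% of all genes. Without replicate 3, 1 rose and 1 fell (3.12% each, against 6.46% and 4.24% of all genes). Myc held 35.3, 37.1 and 25.0 RPKM in miR-27 Tg and 45.7, 53.3 and 51.7 RPKM in WT (-0.63 ± 0.13, adjusted p = 0.00815, and -0.46 with an adjusted p of 0.00845 without replicate 3).

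Genes of DNA replication and mitosis were higher in part. Of 34 tested, 12 rose with all libraries (35.3%) and 8 without replicate 3 (23.5%), against 5.46% and 6.46% of all genes, with medians of 0.46 and 0.30, and none fell in either fit with limma, with 1 and 0 lower genes at an unadjusted p under 0.05. The count was 4 without WT replicate 1 or WT replicate 3 and 15 without WT replicate 2, which held the highest WT values of the 3 genes below. Rrm2, a subunit of ribonucleotide reductase, held 8.95, 9.93 and 11.3 RPKM in miR-27 Tg and 2.50, 6.86 and 2.42 RPKM in WT (1.28 ± 0.27, adjusted p = 0.00886, and 1.20 with an adjusted p of 0.0209 without replicate 3). Tk1, thymidine kinase, held 4.86, 4.08 and 5.07 RPKM in miR-27 Tg and 1.38, 2.67 and 1.20 RPKM in WT (1.08 ± 0.20, adjusted p = 0.00413, and 1.03 with an adjusted p of 0.0108 without replicate 3). Cdk1, the kinase of mitotic entry, held 1.71, 2.01 and 4.42 RPKM in miR-27 Tg and 0.149, 1.22 and 0.146 RPKM in WT (1.31 ± 0.29, adjusted p = 0.0124, and 1.00 with an adjusted p of 0.034 without replicate 3). Its call was lost without WT replicate 1 or 3 (adjusted p up to 0.0623).

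Of 29 apoptosis genes, leaving out 2 that reached 1 RPKM in 1 genotype alone, 2 rose (6.9%) and 2 fell (6.9%) with all libraries, and 2 rose and 3 fell (10.3%) without replicate 3, against 5.46% and 3.15% of all genes and, without replicate 3, 6.46% and 4.24%. Bid, which links death receptors to the mitochondrion, held 5.85, 5.59 and 5.39 RPKM in miR-27 Tg and 11.7, 13.2 and 12.7 RPKM in WT. The libraries within each genotype were close to one another, and the fall was -1.03 ± 0.09 (adjusted p = 1.32e-05) and -1.01 ± 0.08 without replicate 3 (adjusted p = 1.53e-05). Bid averaged 6.80 RPKM in cluster Tg and 14.1 RPKM in miR-24 Tg, and was lower in miR-27 Tg than in miR-24 Tg (adjusted p = 2.94e-06). The anti-apoptotic genes Bcl2l1 and Bcl2l2 rose, both calls being lost without WT replicate 1 or 3, and Fasl fell. Of 13 genes of follicular helper T cells 3 rose (23.1%) and 1 fell with all libraries, and 5 rose (38.5%) and none fell without replicate 3. Of 15 regulatory T cell genes, leaving out 1 that reached 1 RPKM in miR-27 Tg alone, 2 rose (13.3%) with all libraries and 3 (20.0%) without replicate 3, and none fell. Among cytokine receptor genes (33) 4 rose and 1 fell, and 3 rose and 1 fell without replicate 3. Of 45 genes of the T cell receptor complex 2 rose and 1 fell, and 2 rose and none fell without replicate 3. In the list of glycolysis (23 genes) 1 rose and 1 fell, and 2 rose and 1 fell without replicate 3. TGF-beta signalling (16 genes) held 1 gene that fell in both fits. Foxp3, the factor of regulatory T cells, held 6.14, 6.41 and 5.19 RPKM in miR-27 Tg and 2.96, 2.59 and 2.60 RPKM in WT. The groups did not overlap, but the difference did not pass (adjusted p = 0.0782, and 0.0808 without replicate 3).

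**Figure D4:**
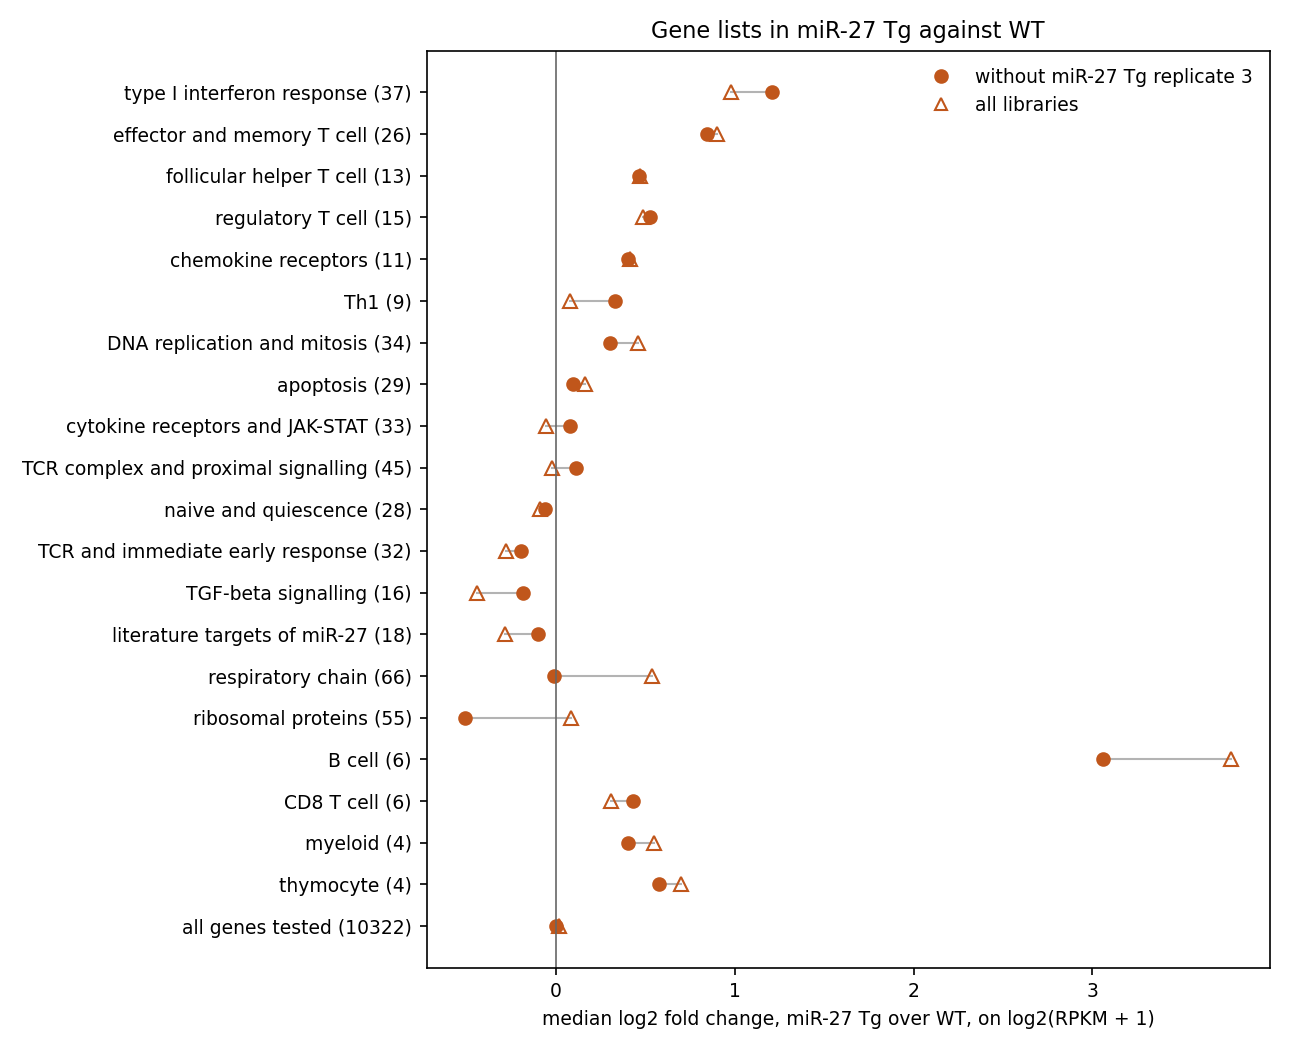
Median log2 difference of miR-27 Tg from WT in each gene list, with all libraries and without miR-27 Tg replicate 3, and the number of genes beside each name, without those that reached 1 RPKM in 1 genotype alone. The B cell, effector and interferon lists lie above 0 with both symbols (medians 3.78, 0.90 and 0.98 with all libraries), and the respiratory chain and ribosomal protein lists shift when replicate 3 is left out.

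Transcripts of other cell types were present and differed between the groups. Their part in the differences above was not tested. Of the 12 B cell markers tested, 6 reached 1 RPKM in miR-27 Tg alone, and the other 6 were all higher in miR-27 Tg in both fits. Of all genes that did not enter through 1 genotype alone, 4.53% were higher with all libraries and 5.66% without replicate 3. The 15 B cell markers in the table summed to 182.1, 475.0 and 1108 RPKM in miR-27 Tg, against 35.0, 32.1 and 22.8 RPKM in WT, with none listed at 0. Cd74, the invariant chain of MHC class II, held 89.9, 212 and 543 RPKM in miR-27 Tg and 18.5, 15.8 and 10.6 RPKM in WT. The summed markers were highest in replicate 3 and lowest in replicate 1. Igj, which joins the chains of secreted antibodies, held 8.47, 17.5 and 26.9 RPKM in miR-27 Tg and 0.0696, 0.165 and 0.127 RPKM in WT, with no test because it reached 1 RPKM in miR-27 Tg alone. B cell markers summed to 98.2 to 188.6 RPKM in cluster Tg and 143 to 553 RPKM in miR-24 Tg.

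Neutrophil transcripts were prominent in replicate 3. The 10 markers summed to 14.0, 37.0 and 693.6 RPKM in miR-27 Tg and 0.408, 0 and 0.0206 RPKM in WT, where 7, 10 and 9 of them were listed at 0. S100a9, one chain of calprotectin, held 6.34, 18.1 and 281 RPKM in miR-27 Tg and 0.139, 0 and 0 RPKM in WT. The 4 neutrophil markers that could be tested all reached 1 RPKM in miR-27 Tg alone, so no test of them is given. Myeloid markers summed to 201.9, 209.7 and 244.0 RPKM in miR-27 Tg and 169.7, 147.9 and 168.6 RPKM in WT, and NK cell markers to 20.6, 22.99 and 42.1 RPKM in miR-27 Tg and 11.4, 10.4 and 15.7 RPKM in WT. The NK genes Klre1 and Klrc1 and the myeloid genes Cd14 and Lyz1 were listed at 0 in all WT libraries. Of all genes that did not enter through 1 genotype alone, 4.53% rose and 3.0% fell with all libraries, and 5.66% and 4.17% without replicate 3. Of 6 CD8 T cell markers 2 rose and 2 fell in both fits (33.3% each), Ctsw and Crtam being those that fell. The remaining marker Cd8a, which reached 1 RPKM in miR-27 Tg alone, held 8.99, 3.76 and 4.99 RPKM in miR-27 Tg and 0.211, 0.442 and 0.530 RPKM in WT. The 8 thymocyte markers summed to 112.3, 93.5 and 84.7 RPKM in miR-27 Tg and 69.3, 78.0 and 80.6 RPKM in WT. Every miR-27 Tg sum was above every WT sum. Of 5 tested, Cd8a is left out of the counts as above. Of the other 4, 1 rose with all libraries and 2 rose without replicate 3, and none fell in either fit. Dntt rose and was called whichever of the 6 libraries was left out (adjusted p up to 0.0257 with limma). Of the 8 markers, 3, 2 and 2 were listed at 0 in miR-27 Tg and 2, 2 and 3 in WT. Among them Rag2 and Ptcra were at 0 in all miR-27 Tg libraries.

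Target sites were sought in the longest annotated 3′ UTR of each gene (GENCODE vM21, GRCm38), which 9860 of the tested genes had. The shorter match, ACTGTGA, pairs with the miR-27 seed, and the longer match, ACTGTGAA, adds the A that follows it in many target sites. Of the 601 genes with the 8-base match, 51 were lower (8.49%) and 21 higher (3.49%) with all libraries, against 315 lower (3.19%) and 551 higher (5.59%) of all 9860. Without replicate 3, 56 were lower (9.32%) and 34 higher (5.66%), against 4.21% and 6.64% of all. Genes with the 7-base match alone lay between, with 5.12% of 1074 lower and 6.52% without replicate 3, and genes with no match had 2.55% of 8185 lower and 3.53% without replicate 3. The median difference of genes with the 8-base match was -0.23 with all libraries and -0.10 without replicate 3. Without 1 of the WT libraries 4.16% to 4.83% of genes with the 8-base match were lower, against 1.57% to 1.72% of all. Among genes with the 8-base match of miR-23 (688 genes, AATGTGAA) 3.34% were lower, and of miR-24 (861 genes, CTGAGCCA) 3.14%.

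The length of the 3′ UTR moved with replicate 3 and with the presence of a match. In replicate 3 genes with a 3′ UTR of at most 500 bases lay above the other miR-27 Tg libraries (median 0.773 on the log2 scale) and those over 4000 bases below them (median -0.788). The share of lower genes was therefore compared within classes of length, without replicate 3. Among 3′ UTRs over 1000 and up to 2000 bases, 13.3% of 143 genes with the 8-base match were lower, and 3.59% of those with no 7-base match. For those over 2000 and up to 4000 bases the shares were 6.78% of 236 genes and 2.27%, and over 4000 bases 4.35% of 138 genes and 1.21%. In the shorter classes they were 20.7% of 29 genes and 3.87%, and 16.4% of 55 genes and 4.60%. The share with the match was above the share without it in each of the 5 classes.

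**Figure D5:**
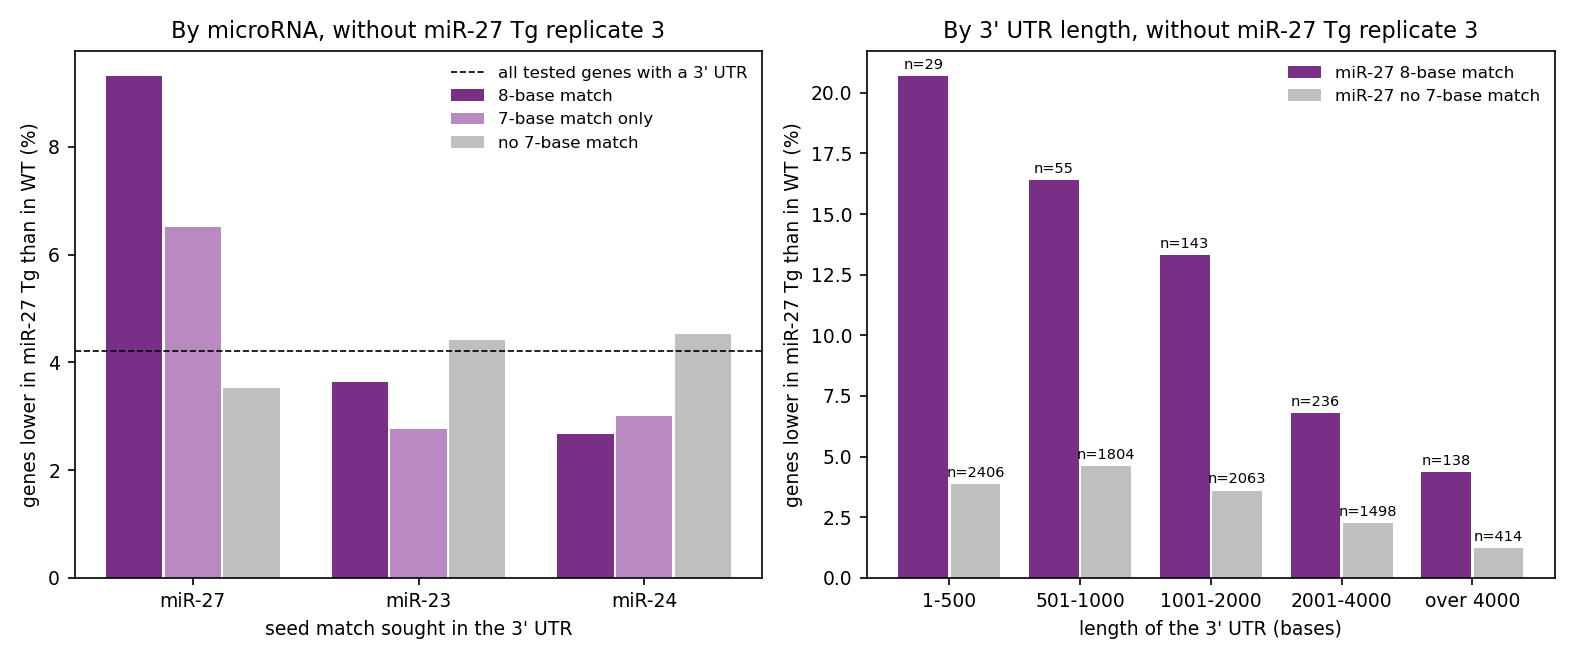
Percent of genes called lower in miR-27 Tg without replicate 3, on the left by the class of seed match for miR-27, miR-23 and miR-24, and on the right by the length of the 3′ UTR for genes with the miR-27 8-base match and with no 7-base match. Genes with the 8-base match of miR-27 reach 9.32%, those of miR-23 3.63% and of miR-24 2.67%, and on the right the genes with the match lie above the others in all 5 classes of length.

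Of the 235 genes with a 3′ UTR that were lower in both fits without overlap, 37 (15.7%) held the 8-base match, against 21 of 451 higher genes (4.66%) and 6.10% of all genes. Among the 15 largest falls, 12 had a 3′ UTR and 2 of these, Ppif and Rgs1, held it. Sites of 8 of the 37 genes are shown, to compare the bases around the match, in the sense of the transcript, with the match in capitals. They lie at chr14:25700164-25700185 (plus strand, Ppif), chr1:144244989-144245010 (minus strand, Rgs1), chr9:40970182-40970203 (minus strand, Crtam), chr9:21028122-21028143 (plus strand, Icam1), chr1:93819037-93819058 (plus strand, Ing5) and chrX:160122983-160123004 (minus strand, Pdha1). Snap29 and Mknk2 each held the match at 2 places, of which the first is shown, at chr16:17428518-17428539 (plus strand) and chr10:80666813-80666834 (minus strand).

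Ppif: cctggtcACTGTGAAtcctgct
Rgs1: cacagaaACTGTGAAtaatgtg
Crtam: gaagtgaACTGTGAAtcctgca
Icam1: gagcaagACTGTGAAcacgtgt
Ing5: tttttttACTGTGAAgatgaaa
Pdha1: ttggctcACTGTGAAgactcct
Snap29: ctgagtaACTGTGAAcaccttg
Mknk2: cctgccaACTGTGAAggtcctg

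Icam1, an adhesion molecule that binds the integrin LFA-1, held 9.59, 11.1 and 8.57 RPKM in miR-27 Tg and 19.0, 27.1 and 18.2 RPKM in WT (-1.05 ± 0.17, adjusted p = 0.00198, and -0.97 with an adjusted p of 0.0051 without replicate 3). Ing5, a reader of histone marks, held 7.39, 7.002 and 4.38 RPKM in miR-27 Tg and 14.2, 13.9 and 14.9 RPKM in WT (-1.11 ± 0.15, adjusted p = 0.000539, and -0.91 with an adjusted p of 0.000297 without replicate 3). Mknk2, a kinase of the cap-binding factor eIF4E, held 137, 131 and 108 RPKM in miR-27 Tg and 223, 197 and 207 RPKM in WT (-0.74 ± 0.12, adjusted p = 0.00217, and -0.63 with an adjusted p of 0.00272 without replicate 3). All these groups were apart, as the choice of these genes requires, and replicate 3 was the lowest library in each. Snap29, which acts in the fusion of vesicles, held 7.88, 8.75 and 7.62 RPKM in miR-27 Tg and 13.0, 13.8 and 16.4 RPKM in WT (-0.76 ± 0.13, adjusted p = 0.00273, and -0.72 with an adjusted p of 0.00588 without replicate 3). Pdha1, a subunit of pyruvate dehydrogenase, held 54.2, 53.0 and 69.5 RPKM in miR-27 Tg and 72.9, 80.9 and 83.5 RPKM in WT (-0.43 ± 0.11, adjusted p = 0.028, and -0.55 with an adjusted p of 0.00157 without replicate 3). Pdk1, whose product phosphorylates this enzyme, held no match in its 3′ UTR of 3734 bases. Prf1, Bid, Fasl, Ctsw and Gaa held none either.

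The share of lower genes among those with the 8-base match was also compared with the other transgenics, without replicate 3. Against miR-24 Tg 99 of the 601 genes were lower in miR-27 Tg (16.5%), against 7.41% of all genes with a 3′ UTR, and against miR-23 Tg 104 (17.3%), against 7.74%. Against cluster Tg the shares were 2.33% and 2.02%. With all libraries, 5.49% of genes with the match were lower in cluster Tg than in WT, against 2.83% of genes with a 3′ UTR and 2.8% of all genes tested. In miR-24 Tg set against WT, also with all libraries, the shares were 1.16%, 1.22% and 1.2%. Icam1 averaged 14.4 RPKM in cluster Tg, 26.4 RPKM in miR-24 Tg and 22.7 RPKM in miR-23 Tg, and was lower in miR-27 Tg than in miR-24 Tg (adjusted p = 0.000213) but not past the threshold against cluster Tg (adjusted p = 0.111).

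Of 24 genes described as targets of miR-27 in the literature, 19 were tested. None was lower past the threshold in either fit with limma, and Rxra rose. At an unadjusted p under 0.05, 6 of the 19 were lower with all libraries and 3 without replicate 3. Of all 10492 genes tested, 1122 and 1131 were lower at that level. Rxra, a partner of nuclear receptors, held 7.28, 7.12 and 6.00 RPKM in miR-27 Tg and 3.78, 4.80 and 3.99 RPKM in WT (0.59 ± 0.11, adjusted p = 0.00389, and 0.66 with an adjusted p of 0.00157 without replicate 3), although its 3′ UTR holds the 8-base match. Leaving out Zbtb10, which reached 1 RPKM in WT alone, the median difference of the other 18 was -0.29 with all libraries and -0.10 without replicate 3. Foxo1, a factor of naive T cell homing and survival, held 84.2, 79.7 and 78.0 RPKM in miR-27 Tg and 96.8, 86.6 and 88.3 RPKM in WT. These groups did not overlap, and the difference of -0.17 ± 0.13 did not pass (adjusted p = 0.418, and -0.14 with an adjusted p of 0.603 without replicate 3). Zbtb10, a zinc finger repressor, held 0.273, 0.208 and 0.345 RPKM in miR-27 Tg and 4.53, 3.02 and 1.19 RPKM in WT. Abca1, a cholesterol exporter, held 4.94, 4.08 and 1.63 RPKM in miR-27 Tg and 11.2, 5.74 and 6.20 RPKM in WT (-0.97 ± 0.31, adjusted p = 0.0712, and -0.61 with an adjusted p of 0.198 without replicate 3). Rel, the NF-kB subunit c-Rel, held 14.2, 14.6 and 1.40 RPKM in miR-27 Tg and 25.1, 23.1 and 15.7 RPKM in WT (-1.40 ± 0.72, adjusted p = 0.246, and -0.51 with an adjusted p of 0.697 without replicate 3). Gata3, the factor of Th2 cells, held 41.7, 28.8 and 49.6 RPKM in miR-27 Tg and 29.5, 26.9 and 22.6 RPKM in WT (0.56 ± 0.23, adjusted p = 0.159, and 0.39 with an adjusted p of 0.359 without replicate 3). The miR-27 Tg values lay below WT for Foxo1, Zbtb10, Abca1 and Rel and overlapped WT for Gata3, and in Rel replicate 3 was far below the other libraries. The standard error of the median gene of all tested was 0.20 with all libraries and 0.16 without replicate 3.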

How the data were processed

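The authors deposited 1 table of RPKM for 18 libraries. Per the labels' protocols, sorted cells gave total RNA that kept small RNAs (miRNeasy), and TruSeq RNA libraries were read on an Illumina HiSeq. STAR 2.2.0c, HOMER and the build mm9 are named per the submitters' processing notes, while the sources used here do not give their roles, the gene models or strandedness. Genes that share reads with paralogs or overlapping genes are therefore uncertain, as are 25 symbols turned into dates. Of 23953 rows, 2 repeated a symbol. Of the miR-23 Tg columns, 2 carry 1 name and were used without a replicate number. No read counts are held, so absolute depth is unknown, and the steps between low values (genes below 0.1 RPKM) gave the relative depth.

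Genes at 1 RPKM or more in at least 3 of the 6 libraries were tested on log2(RPKM + 1), a scale that understates changes of low genes, and 131 of them met this minimum only through the miR-27 Tg libraries and 39 only through WT. Of the genes nearest to it, Slc18a2 (inside) held 1.00088 RPKM in the third-ranked library and Runx2 (outside) 0.999388. All 18 libraries were fitted by genotype in limma 3.58.1 under R 4.3.3 (lmFit, then eBayes with trend), and again without miR-27 Tg replicate 3. Calls have a Benjamini-Hochberg adjusted p under 0.05 over all genes. The fits were tested on simulated data with the same spread per gene in every library. No simulated library stood apart as miR-27 Tg replicate 3 does, so that case was not tested. An exact permutation test of 3 against 3 libraries cannot go below p = 0.1. The replicate numbers were not taken as pairs, since same-numbered libraries deviated together only weakly, a check that does not exclude pairing. Members, lists and tests were chosen with earlier results of these data known. Named genes are hairpins of the cluster, the 15 largest rises and 15 largest falls without replicate 3 among genes called in both fits without overlap, list members meeting the same criteria, literature targets of miR-27, and the genes with the largest excess or deficit in replicate 3. Mx1, Eif2ak2, Foxp3, marker genes at 0 and the genes with a shown target site were named after their values were seen.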

Additional observations from a re-analysis of the deposited data

How the results depend on the processing

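The 903 calls became 885 and 859 with a pseudocount of 0.1 and 5, 1144 with no filter, 910 after quantile normalisation, 887 after median-ratio scaling, 906 without a variance trend, and 978 without DKO replicate 3 (added once the data had been seen). Larger moves were 529 with a minimum of 5 RPKM, 531 after rescaling to rows other than microRNA hairpins, 72 in a fit of the 6 libraries alone, 1502 in a fit of 5 libraries without miR-27 Tg replicate 3, 3374 with array weights, whose estimation did not fully converge, and 2115 with DKO replicate 3 and miR-27 Tg replicate 3 both left out. Leaving out 1 of the 6 libraries gave 519 to 1123. The 1123 calls became 2115 without DKO replicate 3 and 1502 in the fit of 5 libraries. After quantile normalisation they were 1311, with 48.7% higher in place of 60.4%. Fits with a replicate block gave 5 calls (924 genes at an unadjusted p under 0.05) in the 6 libraries and 824 with every numbered library; same-numbered libraries of the 2 genotypes deviated together with r of 0.094, 0.095 and 0.081, so the numbers were not taken as pairs.

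Of 109 named genes called, 75 were called whichever of the 6 libraries was left out. Directions reversed for 5 literature targets, none of them called with all libraries or without replicate 3, and the cause was not tested. Phb was called lower in the fit of 5 libraries, with array weights and without both replicate 3 libraries (adjusted p of 0.0339, 0.00246 and 0.0217). Fbxw7 (0.02) became -0.12 without hairpins, -0.048 in the fit of 5 libraries and with or without DKO replicate 3 where miR-27 Tg replicate 3 was left out, -0.070 with array weights and -0.061 after quantile normalisation without replicate 3. Under the same settings in the same order Phb (0.16) became -0.000336, -0.45, -0.45 and -0.48, and Pink1 (0.14) became -0.022, -0.058, -0.040 and -0.085, and Pink1 also -0.000405 after quantile normalisation of all libraries. Nfe2l2 (-0.19) became 0.15, 0.20 and 0.13 under these settings apart from the first, and Apc (-0.52) 0.026, 0.024 and 0.0097. With 1 of the 6 libraries left out, Fbxw7 ranged between -0.048 and 0.11, Phb between -0.45 and 0.51, Nfe2l2 between -0.36 and 0.15, Apc between -0.79 and 0.026 and Pink1 between -0.058 and 0.28. Depth is unknown, and differences of low genes rest on few reads.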

Other observations

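Erythroid transcripts varied within both genotypes. Their summed RPKM was 4.74, 339 and 593 in miR-27 Tg and 3.56, 30.3 and 1.08 in WT. Hbb-b1, a beta-globin gene, held 2.83, 195 and 285 RPKM in miR-27 Tg and 2.06, 17.9 and 0.223 RPKM in WT, and the difference did not pass (3.85 with an adjusted p of 0.135 from limma). The sexes of the mice behind the libraries were mixed in both genotypes: Xist, expressed from the inactive X chromosome, held 77.6, 0.0556 and 26.2 RPKM in miR-27 Tg and 0.0291, 62.8 and 59.6 RPKM in WT. Ddx3y, a gene of the Y chromosome, held 0.0202, 58.8 and 0.0313 RPKM in miR-27 Tg and 48.7, 0.0177 and 0 RPKM in WT. The sex that each library points to was therefore not aligned with the genotype.

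Single rows of small nucleolar RNAs were among those that differed most between miR-27 Tg replicate 3 and the other miR-27 Tg libraries. The sum of all 105 such rows was not lower in replicate 3, at 66818.1, 61610.6 and 87389.5 RPKM in miR-27 Tg. Of these rows, 36, 29 and 48 were at 0. Snord37 held 8792, 9615 and 0 RPKM in miR-27 Tg and 15816, 8944 and 12615 RPKM in WT, and Snord2 held 4401, 3194 and 0 RPKM in miR-27 Tg and 7807, 5609 and 3826 RPKM in WT. In the other direction, the hairpin row Mir8097 held 37.8, 0.00113 and 3455 RPKM in miR-27 Tg and 27.2, 0.808 and 25.4 RPKM in WT. All of the 10 rows with the largest deficit in replicate 3 were rows of small nucleolar RNAs, microRNA hairpins or the small nuclear RNA row Rnu73b.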
